A study of Homo sapiens with 10 samples.

Results

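ATP-binding cassette (ABC) transporter genes were examined in mRNA sequencing data of 5 BRAF V600E mutant melanoma cell lines, before and after they became resistant to a BRAF and a MEK inhibitor. Members were taken by gene symbol, as ABC followed by a letter from A to G and a number. Of the 57955 genes in the files, 46 matched, and the 38 with at least 20 counts in any library are described while the other 8 are counted as silent. The lines were WM983A, WM278 and WM902B, from primary tumours, and WM983B and WM1617, from metastases. The sensitive group held the original lines, and the resistant group (E+BRes) the cells grown from each of them in encorafenib plus binimetinib, at doses that started at 1 nM, reached 200 nM within 3 to 5 months and stayed there. WM983A and WM983B came from 1 patient, and so did WM278 and WM1617. Each group had 5 libraries, 1 per line, compared at the same passage number, so the lines are the replicates and no line has a replicate of its own. Drug exposure and the resistant state cannot be told apart, because the resistant lines were maintained in the drugs.

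ABC transporters bind and hydrolyse ATP and use the energy to carry substrates across membranes. Members of the B, C and G subfamilies pump drugs, glutathione conjugates and bile pigments out of cells, members of the A subfamily and some of G move sterols and phospholipids, and others serve mitochondria, lysosomes or peroxisomes. The E and F proteins have the ATPase domains without a membrane part and act in translation. In tumours the efflux pumps are known for multidrug resistance, and ABCB5 is known as a transporter of pigment cells and melanoma.

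Libraries held 13970608 to 16966008 counts in the sensitive group and 13693922 to 18033247 in the resistant group. Levels are given in CPM, that is, counts scaled to a common library size by TMM, and 3 counts, the smallest level taken as detectable, equal 0.171 to 0.226 CPM. This limit covers counting error only. Over 17288 genes, the resistant WM983A library correlated with sensitive WM983A at r = 0.827 and with sensitive WM902B at 0.845, whereas the other resistant libraries were most like the sensitive library of their own line, and WM1617 differed least, at 0.984. These are correlations across genes, which are not independent replicates. Summed over 8 melanocyte genes (MITF, PMEL, MLANA, TYR, DCT, TYRP1, SOX10 and S100B), levels were 426 to 4481 CPM in the sensitive lines. In resistant cells they were 4414 CPM in WM1617 and 915 CPM in WM278, but 231 CPM in WM902B, 139 CPM in WM983B and 88.2 CPM in WM983A. Most of the sum in resistant WM278 was S100B (619 CPM) and SOX10 (271 CPM). Each of the other melanocyte genes was at most 14.3 CPM there, and at most 10.7 CPM in sensitive WM278. Summed markers of endothelial cells, leukocytes and hepatocytes stayed at or under 5.23 CPM in every library, and the 4 fibroblast genes ranged from 5.39 to 77.8 CPM in sensitive and from 6.32 to 1277 CPM in resistant libraries, highest in WM902B. The 4 keratinocyte genes summed to 17.6 to 85.4 CPM, with KRT1 at 0 in all 10.

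Between the groups, 6 of the 31 members that passed the filter on low counts were called higher in the resistant libraries, and 0 were called lower. A call needed a difference of 2-fold or more and an unadjusted p no larger than 0.05 from the quasi-likelihood test of edgeR. They were the efflux pumps ABCC1, ABCC2, ABCC3 and ABCG2 and the lipid transporters ABCA3 and ABCA7. That is 19.4% of the members tested, where 3.53% of all genes tested were called higher and 0.885% lower. After Benjamini-Hochberg adjustment over all genes, 0 members passed, like 0.0% of all genes, at a smallest adjusted p of 0.630, and 8 members had an unadjusted p of at most 0.05 whatever their fold. The median log2 fold change was -0.15 over the members tested and 0.03 over all genes tested. With cell line as a block, which takes each resistant line against its own parent, ABCA7, ABCC1, ABCC2, ABCC3 and ABCG2 were called higher and ABCB5 lower, against 3.49% of all genes higher and 2.05% lower. ABCA3 was not called with the block. For 0 members did the 2 groups lie apart without overlap, where 0.442% of the 19666 genes with at least 20 counts lay wholly higher and 0.31% wholly lower in the resistant group.

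**Figure D1:**
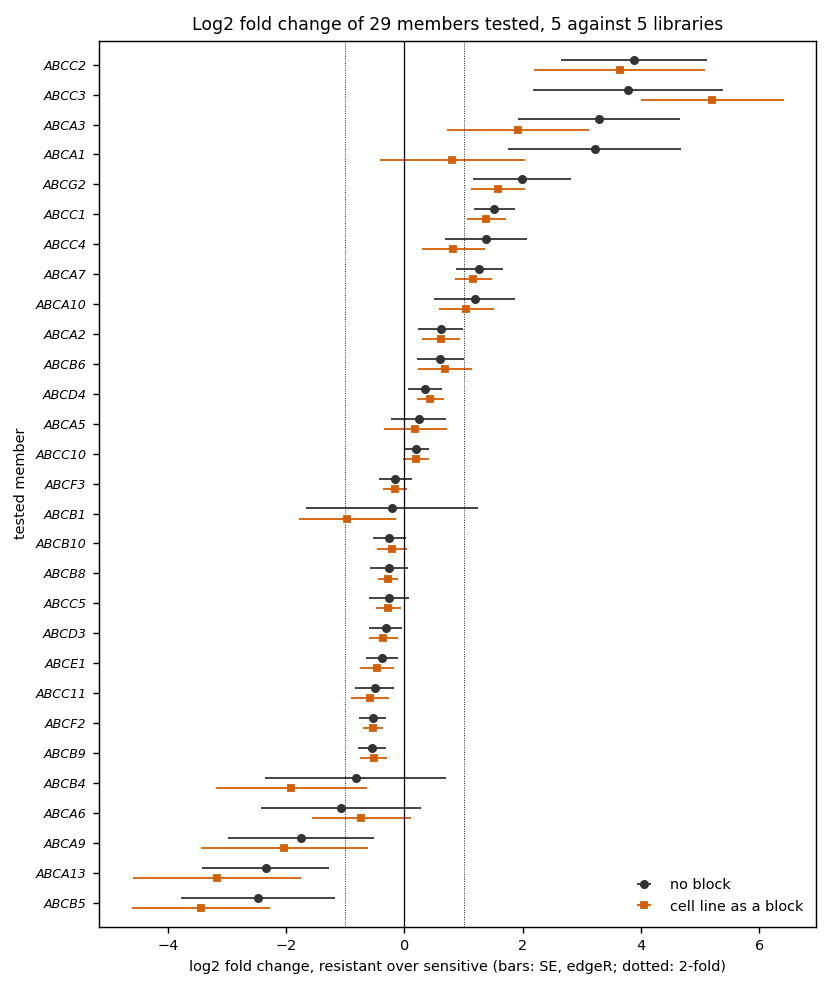
Log2 fold change of 29 of the members tested, resistant over sensitive, from edgeR without a block (black circles) and with cell line as a block (orange squares). Bars are standard errors derived from the log2 fold change and the F statistic of the test, and dotted lines mark 2-fold. ABCC2, ABCC3 and ABCA3 lie farthest to the right and ABCB5 farthest to the left, with wide bars, whereas ABCC1 and ABCA7 have narrow ones.

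Among the 11 drug and conjugate efflux genes, 10 were described and 9 tested. Of these 9, 4 were called higher and 0 lower, against 3.53% and 0.885% of all genes tested. The median log2 fold change of the 9 was 1.38. ABCC1, ABCC2, ABCC3 and ABCG2 were the 4. ABCC4, ABCC5, ABCC10, ABCC11 and ABCB1 were not called, and ABCC12 was silent.

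ABCC1 (MRP1; ENSG00000103222, chromosome 16 from 15949138 to 16143257) exports glutathione conjugates and many drugs. In sensitive cells its level was 32.3 CPM in WM278, 32.3 in WM1617, 26.3 in WM902B, 30.2 in WM983A and 24.4 in WM983B. In resistant cells it was 119 CPM in WM278, 31.1 in WM1617, 77.6 in WM902B, 123 in WM983A and 63.2 in WM983B. Resistant WM1617 alone fell within the sensitive range, and the other 4 resistant libraries lay above every sensitive one. The group means were 29.1 ± 3.58 and 82.8 ± 38.8 CPM (SD over 5 libraries). The log2 fold change was 1.52 (SE 0.343, unadjusted p = 0.00113, adjusted p = 0.630 in edgeR's test) and 1.34 (unadjusted p = 0.00761) without WM983A. An exact two-sided permutation of the 10 libraries gave p = 0.0238.

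ABCC2 (MRP2; ENSG00000023839, chromosome 10 from 99782640 to 99852594) carries conjugated bilirubin and drug conjugates out of hepatocytes into bile. Its level in sensitive cells was 34.9 CPM in WM278, 15.6 in WM1617, 6.90 in WM902B, 24.3 in WM983A and 0.661 in WM983B. In resistant cells it reached 724 CPM in WM983A and 362 in WM902B, against 54.1 in WM983B, 57.1 in WM278 and 9.70 in WM1617. The sensitive levels thus differed among lines already, and the groups overlapped through resistant WM1617, which was lower than its parent. Within lines the ratio was 81.9-fold in WM983B, 52.4-fold in WM902B, 29.8-fold in WM983A and 1.64-fold in WM278, and WM1617 was 1.61-fold lower. Between the groups the log2 fold change was 3.88 (SE 1.23, unadjusted p = 0.00978, adjusted p = 0.630 in edgeR's test), and 3.05 (unadjusted p = 0.0446) without WM983A. The exact permutation gave p = 0.0556, and DESeq2, which also passed ABCC1 after adjustment, an adjusted p of 0.0333.

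ABCC3 (MRP3; ENSG00000108846, chromosome 17 from 50634777 to 50692253) transports organic anions and glucuronides across basolateral membranes. In sensitive cells it was at 51.6 CPM in WM278, 0.0711 in WM1617, 2.84 in WM902B, 3.29 in WM983A and 1.73 in WM983B. In resistant cells it was at 88.1 CPM in WM278, 0.430 in WM1617, 148 in WM902B, 440 in WM983A and 138 in WM983B. Resistant cells held more ABCC3 than their parent in each line, but sensitive WM278 lay above resistant WM1617, so the groups overlapped. The ratio was 134-fold in WM983A, 79.4-fold in WM983B, 52.3-fold in WM902B and 1.71-fold in WM278, and WM1617 had 1.00 count before and 7.54 after. The log2 fold change was 3.78 (SE 1.60, unadjusted p = 0.0391, adjusted p = 0.686 in edgeR's test) without the block and 5.20 (unadjusted p = 0.00380) with it. The exact permutation gave p = 0.111 and limma-voom an unadjusted p = 0.0924, so neither called it. Without WM983A it was 2.73 and not called (unadjusted p = 0.161), without WM983B 3.53 (unadjusted p = 0.0977) and without WM902B 3.56 (unadjusted p = 0.10). It was also not called when any 1 of 7 single libraries was left out, namely resistant WM983A, WM983B or WM902B or sensitive WM983A, WM983B, WM1617 or WM902B (log2 fold change 2.97 to 3.83, unadjusted p = 0.0533 to 0.0943 in edgeR's test), and it was 6.52 (unadjusted p = 0.00413) without WM278.

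ABCG2 (BCRP; ENSG00000118777, chromosome 4 from 88090150 to 88231628) is a pump that exports urate and many drugs. It was at 16.8 CPM in sensitive WM278, 2.48 in WM1617, 11.1 in WM902B, 7.93 in WM983A and 3.10 in WM983B. In the resistant lines it was at 30.6 CPM in WM278, 2.80 in WM1617, 49.8 in WM902B, 71.2 in WM983A and 8.49 in WM983B. Each line held more in the resistant state, by 8.98-fold in WM983A down to 1.13-fold in WM1617, while the groups overlapped in range. Between the groups the log2 fold change was 1.99 (SE 0.831, unadjusted p = 0.0368, adjusted p = 0.685 in edgeR's test) and 1.58 (unadjusted p = 0.0115) with the block. The exact permutation gave p = 0.167 and limma-voom an unadjusted p = 0.151, and the gene was not called by either. It was 1.45 (unadjusted p = 0.157) without WM983A, 2.00 (unadjusted p = 0.0514) without WM983B and 1.91 (unadjusted p = 0.0925) without WM902B. It was also not called without any 1 of resistant WM983A, WM278 or WM902B or sensitive WM983A, WM983B, WM1617 or WM902B (1.47 to 2.10, unadjusted p = 0.0524 to 0.108 in edgeR's test).

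**Figure D2:**
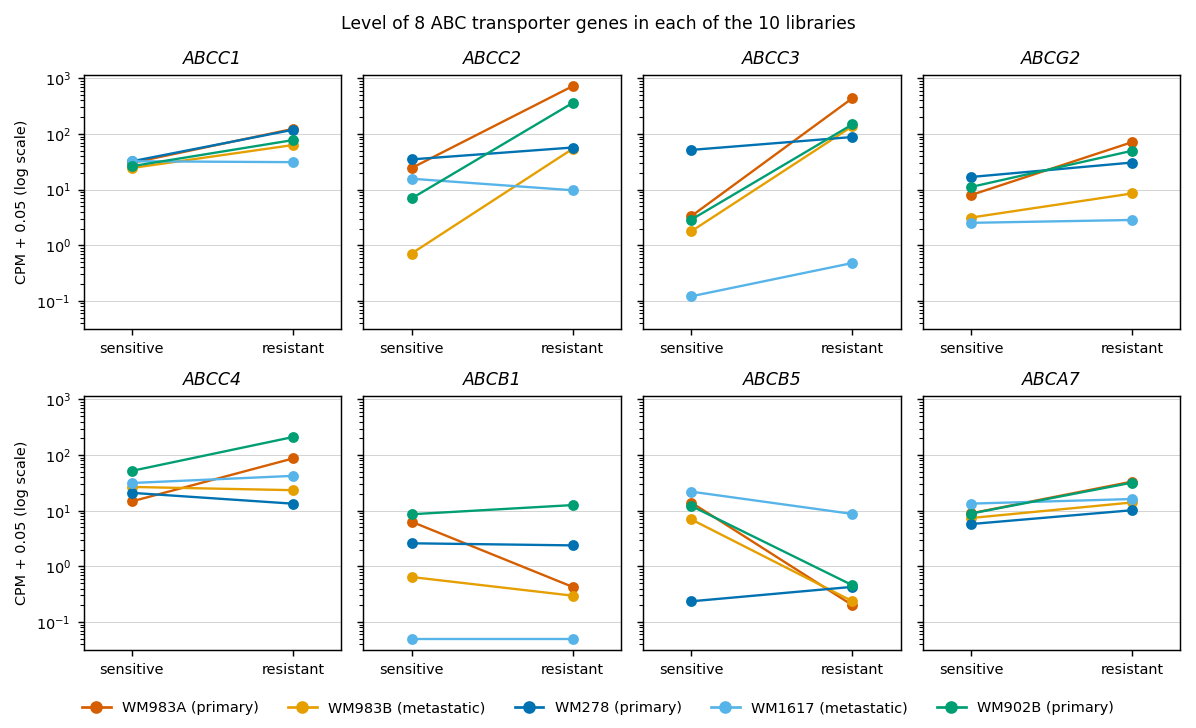
Level of 8 members in each library, as CPM with 0.05 added, on a log axis, with a line joining the sensitive and resistant library of each cell line. ABCC3 and ABCC2 climb steeply in WM983A, WM983B and WM902B, ABCB5 descends in the same lines, and WM1617 (light blue) stays nearly level for ABCC1, ABCC4, ABCG2 and ABCA7.

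ABCC4 (MRP4), an exporter of cyclic nucleotides and prostaglandins, was at 14.7, 26.7, 20.9, 31.4 and 52.0 CPM in sensitive WM983A, WM983B, WM278, WM1617 and WM902B. The resistant lines in the same order had 87.0, 23.4, 13.3, 42.2 and 211 CPM. It was thus higher in resistant WM983A, WM1617 and WM902B and lower in WM983B and WM278, and its log2 fold change was 1.38 (SE 0.687, unadjusted p = 0.0710 in edgeR's test). DESeq2 called ABCC4 (1.37, unadjusted p = 0.0445). The block (0.83, unadjusted p = 0.169) and the exact permutation (p = 0.317) did not. ABCB1 (P-glycoprotein, the drug pump MDR1) was at 2.55 CPM in sensitive WM278, 0 in WM1617, 8.59 in WM902B, 6.29 in WM983A and 0.594 in WM983B. After resistance it was at 2.33 CPM in WM278, 0 in WM1617, 12.6 in WM902B, 0.377 in WM983A and 0.248 in WM983B. Neither a common direction nor a difference beyond the spread was seen (log2 fold change -0.21, SE 1.46, unadjusted p = 0.888), and the direction reversed when WM983A was left out. ABCC5 and ABCC10, both broadly expressed exporters, ranged from 25.2 to 68.1 and from 19.0 to 33.3 CPM over all 10 libraries and were not called. ABCC11, the transporter behind earwax type, was at 0.978 to 3.33 CPM and was not called either.

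ABCC6, whose loss causes the mineralization disorder pseudoxanthoma elasticum, was near the detection limit. It had 1.00, 0, 3.00, 1.36 and 1.00 counts in the sensitive lines and 21.7, 1.25, 25.4, 1.53 and 20.6 counts in resistant WM983A, WM983B, WM278, WM1617 and WM902B. Over 20 counts were seen in resistant WM983A, WM278 and WM902B alone, the gene did not pass the filter, and the exact permutation gave p = 0.0635. ABCC6 lies 6307 bases beyond the end of ABCC1 on the opposite strand, and its counts were 1.33%, 1.35% and 1.79% of those of ABCC1 in these 3 resistant libraries, against at most 0.578% elsewhere. The sources used here do not state whether counting used strand, and the part of ABCC1 reads in ABCC6 was not tested. The pseudogenes ABCC6P1 and ABCC6P2 had at most 4 counts in a library.

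Summed over the efflux genes, sensitive cells held 150 to 210 CPM in all lines. Resistant cells ranged from 142 CPM in WM1617 to 1501 in WM983A, with 931 in WM902B, 381 in WM983B and 363 in WM278. The makeup of the sum differed among the resistant lines. ABCC2 made up 48.3% of it in WM983A and 38.8% in WM902B, ABCC3 36.1% in WM983B, ABCC1 32.7% in WM278 and ABCC4 29.7% in WM1617. In the sensitive lines ABCC5 led in WM983A (31.7%), WM983B (45.3%) and WM1617 (29.2%), ABCC3 in WM278 (24.6%) and ABCC4 in WM902B (31.4%). Whole libraries are measured here, so that more cells expressing a gene and more RNA per cell cannot be told apart.

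**Figure D3:**
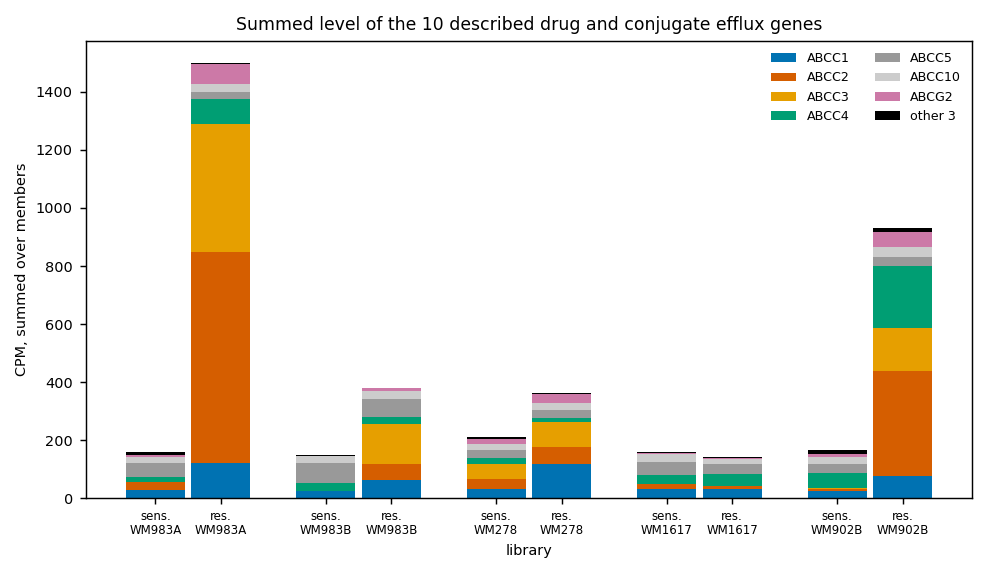
CPM of the 10 described efflux genes, stacked by gene, in the sensitive and resistant library of each line. The bars of the sensitive lines end between 150 and 210 CPM, and the resistant bars range from 142 CPM in WM1617 to 1501 CPM in WM983A, where ABCC2 and ABCC3 fill most of the bar.

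Compared per kilobase of exon, the most abundant members in the sensitive group were ABCF2, with a median of 37.9 CPM per kb, and ABCE1 with 33.1. Their sensitive ranges, 24.9 to 40.4 and 24.7 to 35.9 CPM per kb, overlapped, so the order of these neighbours is within their spread. In the resistant group ABCC3 had rank 3, with a median of 14.3 CPM per kb and a range from 0.0448 to 45.7, after rank 26 in the sensitive group, where its median was 0.295. ABCC2 was the most abundant member in resistant WM983A, at 92.4 CPM per kb, and in resistant WM902B, at 46.2.

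RefSeq promoter windows (GRCh38.p14) were at hand for 35 of the 46 members, of which ABCA3, ABCA7, ABCC2 and ABCG2 belonged to those called higher. Those of ABCC2 and ABCA7 are shown because both genes were called in each fit and differ in base composition, and the windows of ABCA3 and ABCC4 because they hold a match to a motif searched. Each is the stretch of 250 bases before the start, with any match in capitals.
ABCC2 (chr10:99782390-99782639, plus strand): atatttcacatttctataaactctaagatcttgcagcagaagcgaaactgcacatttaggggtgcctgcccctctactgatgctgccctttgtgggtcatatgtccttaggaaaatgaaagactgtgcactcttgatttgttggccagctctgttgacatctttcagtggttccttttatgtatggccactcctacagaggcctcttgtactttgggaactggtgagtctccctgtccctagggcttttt
ABCA7 (chr19:1039857-1040106, plus strand): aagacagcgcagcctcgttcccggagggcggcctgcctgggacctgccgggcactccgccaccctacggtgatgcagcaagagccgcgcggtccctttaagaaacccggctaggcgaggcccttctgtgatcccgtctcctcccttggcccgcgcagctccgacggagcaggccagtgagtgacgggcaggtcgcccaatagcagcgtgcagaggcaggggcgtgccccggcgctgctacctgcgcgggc
ABCA3 (chr16:2340729-2340978, minus strand): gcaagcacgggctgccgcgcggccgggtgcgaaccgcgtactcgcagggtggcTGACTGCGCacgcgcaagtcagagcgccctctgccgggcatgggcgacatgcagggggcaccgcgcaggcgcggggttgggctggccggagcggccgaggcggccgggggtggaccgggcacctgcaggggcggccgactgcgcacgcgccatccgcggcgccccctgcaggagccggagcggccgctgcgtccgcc
ABCC4 (chr13:95301452-95301701, minus strand): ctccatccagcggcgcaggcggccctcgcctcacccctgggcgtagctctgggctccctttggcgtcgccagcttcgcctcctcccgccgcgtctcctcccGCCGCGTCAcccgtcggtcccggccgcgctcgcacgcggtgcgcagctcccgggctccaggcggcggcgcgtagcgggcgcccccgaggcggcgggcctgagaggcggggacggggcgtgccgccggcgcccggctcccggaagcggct
The ABCC2 stretch was 45.6% G and C with 1 CpG, against 70.4% and 25 CpG in ABCA7, 79.2% and 38 in ABCA3 and 80.4% and 42 in ABCC4. Both strands of the windows, from 250 bases before to 50 after the start, were searched for TGACNNNGC, the core of the antioxidant response element bound by NRF2, for CATGTG, the M-box core bound by MITF, and for CACGTG, the E-box, which reads alike on both strands. Of 35116 promoter windows, 13.35% held the first, 11.1% the second and 7.26% the third. The 28 described members with a window had 41 windows, of which 11 held the first, 4 the second and 8 the third. Counted by gene over all its windows, 11, 4 and 7 of the 28 members held them, and 16.1%, 13.4% and 8.8% of all 27305 genes. The capitals above mark TGACNNNGC on the strand shown in ABCA3 and on the opposite strand in ABCC4, where they read as its reverse complement. It was also found in 1 ABCG2 window, at bases 2 to 10 after the start. CATGTG was found in the ABCC2 window on the opposite strand, at bases 4 to 9 after the start, and ABCA7 held none of the 3. ABCG2 has 5 RefSeq starts, and the windows of 2 of them share 1 E-box.
ABCG2 (chr4:88159013-88159042, minus strand): agcgcggcaggaCACGTGtgcgctttcagc
These matches describe letters and not sites of binding.

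Of the 17 sterol and lipid transporters, 14 were described and 10 tested. Of these 10, 2 were called higher and 0 lower, against 3.53% and 0.885% of all genes tested. With the block only ABCA7 was called, as higher, against 3.49% of all genes. ABCA7 (ENSG00000064687, chromosome 19 from 1039997 to 1065572), a phospholipid transporter related to ABCA1, was at 5.71 CPM in sensitive WM278, 13.4 in WM1617, 8.84 in WM902B, 8.92 in WM983A and 7.35 in WM983B. The resistant libraries had 10.2 CPM in WM278, 16.2 in WM1617, 31.9 in WM902B, 33.3 in WM983A and 14 in WM983B. All 5 lines were higher in the resistant state, by 3.73-fold in WM983A down to 1.21-fold in WM1617, and the groups overlapped only through sensitive WM1617, which exceeded resistant WM278. The log2 fold change was 1.26 (SE 0.393, unadjusted p = 0.00871, adjusted p = 0.630 in edgeR's test) and 1.04 (unadjusted p = 0.0435) without WM983A, and the exact permutation p was 0.0159.

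ABCA3, the lipid transporter of lung lamellar bodies, was at 0.707, 0.595, 0.187, 1.77 and 0.133 CPM in sensitive WM983A, WM983B, WM278, WM1617 and WM902B. Resistant WM983A held 22.9 CPM and resistant WM983B 9.14, and the other resistant lines held 0.134 to 1.03. The difference thus sat in 2 lines from the same patient, and was 32.4-fold in WM983A and 15.4-fold in WM983B. Between the groups the log2 fold change was 3.29 (SE 1.37, unadjusted p = 0.0359 in edgeR's test), and 1.91 (unadjusted p = 0.157) with the block. The exact permutation gave p = 0.310 and limma-voom an unadjusted p = 0.373. Without the resistant WM983A library it was 1.93 (unadjusted p = 0.150), and without WM983B 3.07 (unadjusted p = 0.104). Nor was it called without resistant WM983B or without sensitive WM983A, WM983B, WM278 or WM902B (3.00 to 3.31, unadjusted p = 0.0603 to 0.0750 in edgeR's test). ABCA1, which loads cholesterol onto apolipoprotein A-I, followed the same lines, at 56.8 CPM in resistant WM983A and 20.2 in resistant WM983B against 1.97 and 4.03 in their parents. It was at most 0.929 CPM in both states of the other lines, and its log2 fold change of 3.22 (SE 1.46) did not pass (unadjusted p = 0.0513 in edgeR's test). DESeq2 (3.21, unadjusted p = 0.00852) and edgeR with no filter (3.16, unadjusted p = 0.0408) called ABCA1. The block (0.81, unadjusted p = 0.530), limma-voom (0.50, unadjusted p = 0.769) and the exact permutation (p = 0.714) did not.

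Other lipid transporters were lower in several resistant lines without passing the test. ABCA13 was at 10.2 CPM in sensitive WM278, 2.06 in WM1617, 6.05 in WM902B, 15.3 in WM983A and 28.0 in WM983B. In the resistant lines it was at 6.64 CPM in WM278, 4 in WM1617, 0.134 in WM902B, 0.0755 in WM983A and 1.21 in WM983B. It was lower in all lines but WM1617, with a log2 fold change of -2.35 (SE 1.08, unadjusted p = 0.0531 in edgeR's test) and an exact permutation p of 0.0476. ABCB4, which moves phosphatidylcholine into bile, lies 22581 bases from ABCB1 on chromosome 7. It had 286 counts in sensitive WM983A and 0 in the resistant line, at least 82.8-fold lower, and was 1.75-fold higher in resistant WM278. ABCA9, in the chromosome 17 cluster of ABCA8, ABCA9, ABCA6, ABCA10 and ABCA5, went from 168 to 0 counts in WM983A, at least 48.7-fold lower, was 14.5-fold lower in WM983B and was 2.69-fold higher in WM278. The cluster did not move as a unit in WM983A, where the log2 ratio was -5.18 for ABCA6, -1.80 for ABCA5 and -0.27 for ABCA10. ABCA5 and ABCA10 overlap at their ends, so reads there could be counted for either. ABCA2, a lipid transporter of the nervous system, was at 31.9 to 84.1 CPM in sensitive and 36.5 to 121 CPM in resistant libraries and was not called. ABCA8 had 14.1 CPM in sensitive and 27.7 CPM in resistant WM278 and at most 4 counts in any other library. ABCG1, an exporter of cholesterol to high-density lipoprotein, had 38.0 counts in resistant WM983A and 23.0 in sensitive WM278, and ABCA4, the retinoid transporter of photoreceptors, had 31.7 counts in resistant WM983A and 33.2 in resistant WM902B. ABCA4, ABCA8, ABCG1 and ABCG5 were too low to be tested, and so were ABCC6, ABCC8 and ABCF1.

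ABCB5 (ENSG00000004846, chromosome 7 from 20615667 to 20777038) was at 0.186 CPM in sensitive WM278, 22.0 in WM1617, 12.1 in WM902B, 14 in WM983A and 6.94 in WM983B. In resistant cells it was at 0.379 CPM in WM278, 8.70 in WM1617, 0.409 in WM902B, 0.151 in WM983A and 0.187 in WM983B. It was lower in the resistant state of all lines but WM278, which hardly expressed it in either state, and resistant WM1617 alone kept a level within the range of the expressing parents. The within-line log2 ratio was -6.02 in WM983A, -4.80 in WM983B, -4.69 in WM902B, -1.33 in WM1617 and 0.82 in WM278. The log2 fold change was -2.48 (SE 1.31, unadjusted p = 0.0853 in edgeR's test) without the block and -3.44 (SE 1.17, unadjusted p = 0.0222) with it. The exact permutation gave p = 0.111 and limma-voom an unadjusted p = 0.0858, both without a call, and DESeq2 an unadjusted p = 0.0313. Without resistant WM1617 it was -5.25 (unadjusted p = 0.000915) and without sensitive WM278 -2.80 (unadjusted p = 0.0408).

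The 8 melanocyte genes were all lower in resistant WM983A, as ABCB5 was. All but MLANA were lower in WM983B and all but TYRP1 in WM902B, and the genes differed in direction in WM278 and WM1617. SOX10, a transcription factor of the neural crest, had log2 ratios of -5.73 in WM983A, -4.60 in WM983B, -8.78 in WM902B, -0.22 in WM278 and -0.02 in WM1617. TYR, the enzyme of melanin synthesis, had -7.03, -4.35, -6.71, 0.06 and -0.52 in the same order. Of the 8 melanocyte genes 1, TYRP1, was called lower without the block (log2 fold change -5.21, unadjusted p = 0.0158) and 1, TYR, with it (-3.92, unadjusted p = 0.0292). Of all genes tested, 0.885% were called lower without the block and 2.05% with it. TYRP1 was lower in WM983A and WM983B, at log2 ratios of -7.75 and -6.50, but had 0.95 in WM902B. Its level there was 0.733 CPM in sensitive and 1.48 CPM in resistant cells. MLANA, a melanosome protein, was higher in WM983B, at 2.05, with 0.900 CPM in sensitive and 3.93 CPM in resistant cells. DCT and S100B were higher in WM1617, at 0.50 and 1.33, where ABCB5 was lower. The part of the 8 melanocyte genes in the result for ABCB5 was not tested.

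**Figure D4:**
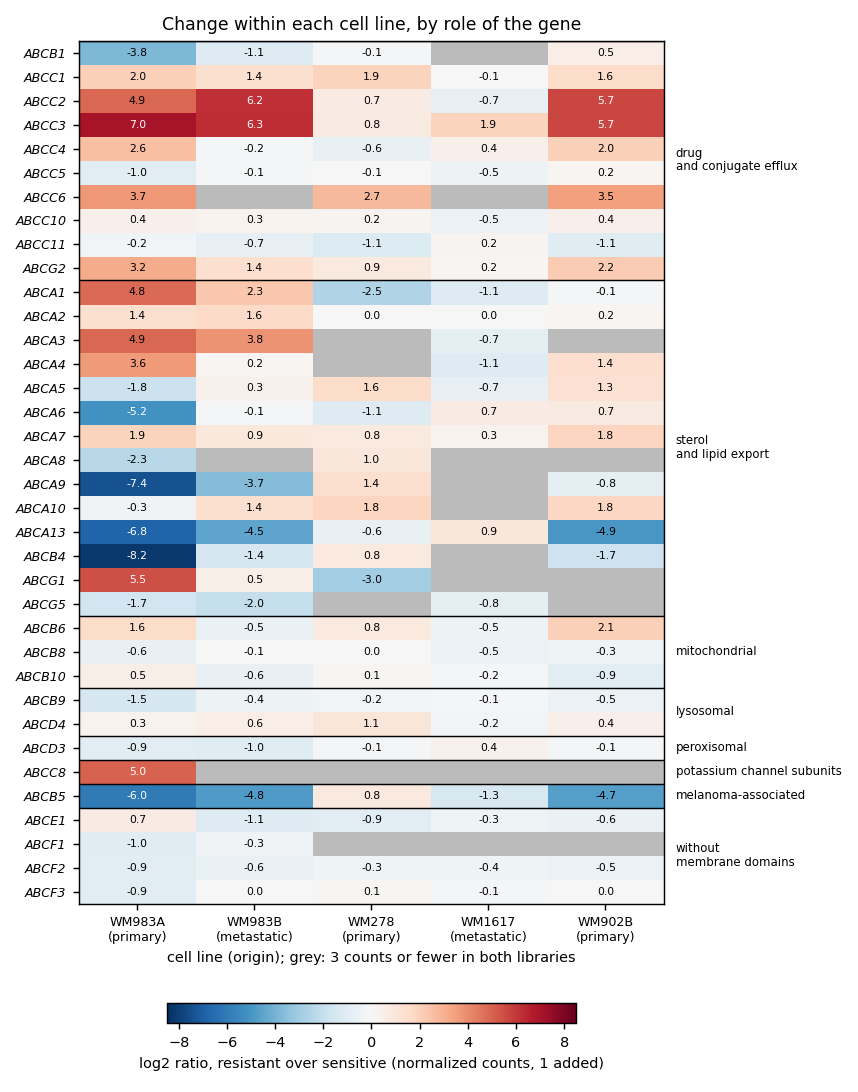
Log2 ratio of resistant to sensitive normalized counts, with 1 added, for 36 described members in each line, grouped by role. Red is higher and blue lower in resistant cells, and grey marks 3 counts or fewer in both libraries. Strong colours stand in the efflux, lipid and ABCB5 rows of WM983A, WM983B and WM902B, whereas the mitochondrial, lysosomal and peroxisomal rows and the WM1617 column are pale.

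None of the 4 mitochondrial, 2 lysosomal and 2 described peroxisomal members was called in either fit. ABCB6, ABCB8 and ABCB10, which serve haem metabolism and mitochondrial transport, had log2 fold changes of -0.27 to 0.61. ABCB6 was at 14.3, 16.3 and 14.7 CPM in the sensitive primary lines WM983A, WM278 and WM902B and at 42.3, 28.5 and 61.4 CPM after resistance. In the metastatic lines WM983B and WM1617 it was at 39.6 and 39.3 CPM before and 27.2 and 28.5 CPM after, so that the direction was opposite. The interaction of state with tumour origin was -2.05 on the log2 scale, metastatic minus primary (SE 0.502, unadjusted p = 0.00306, adjusted p = 1.00 in edgeR's test). ABCB6 was the 1 member of 31 past 2-fold and the unadjusted threshold for this interaction, against 0.925% of all genes, and 0 members passed adjustment. The lysosomal peptide transporter ABCB9 was lower in all 5 lines, from 1.06-fold in WM1617 to 2.75-fold in WM983A, and its log2 fold change stayed under the fold needed for a call (-0.55, SE 0.239, unadjusted p = 0.0441). ABCD4, which works in cobalamin export from lysosomes, had a log2 fold change of 0.35. The peroxisomal fatty acid transporter ABCD3 had a log2 fold change of -0.32. Of 10 genes of peroxisomal import and beta-oxidation 0 were called, against 3.53% of all genes higher and 0.885% lower. SCP2 among them missed a call on fold only (log2 fold change 0.82, unadjusted p = 0.0406 in edgeR's test).

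Of the 4 proteins without membrane domains, ABCE1, ABCF2 and ABCF3 were tested and 0 were called. ABCF3 ranged from 31.8 to 74.8 CPM over all libraries. ABCF2 was lower in all 5 lines, at 174 ± 39.7 CPM in sensitive and 119 ± 26.3 CPM in resistant libraries (SD over 5), with a log2 fold change of -0.54 (SE 0.228, unadjusted p = 0.0386). ABCE1, a ribosome recycling factor, was at 154 to 224 CPM in sensitive cells and at 99.1 to 247 CPM in resistant cells, where WM983A was the highest and the only line above its parent. ABCF1 had 32.0 and 31.0 counts in sensitive WM983A and WM983B and 0 in 5 libraries. It lies on chromosome 6 in the interval of the major histocompatibility complex, where 108 of 150 protein-coding genes had under 20 counts in all libraries, against 26.1% of the protein-coding genes elsewhere, and where TUBB and MRPS18B, which cells use generally, were listed at 0 in all 10. TAP1, the peptide transporter of antigen presentation, lies in the same interval and was likewise listed at 0, so ABCF1, TAP1 and TAP2 (11.9 to 120 counts) are not read as levels. CFTR, the chloride channel of the family, had at most 4.58 counts.

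The potassium channel subunit ABCC8 was detected in resistant WM983A, at 27.7 counts or 2.09 CPM, and had under 1 count in each of the other libraries, and ABCC9 was silent. ABCA12, with 18.8 counts, ABCD2 with 16.0 and ABCG4 with 13.0 were just below the threshold of 20, and ABCC12, ABCC9, ABCB11, ABCG8 and ABCC13 had at most 6. ABCC13, annotated as a pseudogene, had 0 counts in each library. ABCG5, with 22.7 counts in sensitive WM1617, and ABCC6 were just above the threshold.

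Within single lines, with 1 library per state and hence no test, the number of members past 2-fold is given beside the share of all genes. In WM983A 14 of 38 members above the floor were higher and 12 lower, against 20% and 20.8% of genes. In WM902B 11 of 32 were higher and 4 lower (17.9% and 13.2%), and in WM983B 8 of 35 were higher and 8 lower (19.4% and 11.9%). WM278 had 6 of 33 higher and 4 lower (14.5% and 8.31%), and WM1617 1 of 29 higher and 3 lower (3.41% and 5.15%). The ratios behind these numbers had 1 added to normalized counts, and members with 3 counts or fewer in both libraries were left out. Only in the fold values given for single members was a library with 3 counts or fewer set to 3.

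Genes around the transporters were examined as lists of pathway members. Of 10 genes of glutathione supply and other redox enzymes (among them TXNRD1 and NQO1), 4 were called higher and 0 lower, and 2 with the block. Of all genes, 3.53% and 3.49% were called higher in these fits. GCLC, the catalytic subunit of glutathione synthesis, had a log2 fold change of 2.18 (SE 0.797, unadjusted p = 0.0200), and within lines 4.48 in WM983A and 2.10 in WM902B but -0.31, -0.22 and 0.06 in the others. TXNRD1, a thioredoxin reductase, had a log2 fold change of 1.35 (unadjusted p = 0.0303) and was also called with the block, whereas GGT1 and GCLC were not. The liver X receptor list holds the sterol sensors that control ABCA1 and ABCG1, and 9 of its genes were tested and 0 called. RXRA in this list missed a call on fold only (log2 fold change 0.84, unadjusted p = 0.0109 in edgeR's test). Of the nuclear regulators, which include NFE2L2 (NRF2) and MITF, 7 were tested and 0 called. Of 4 organic anion uptake carriers tested 0 were called without the block, and 1, SLCO5A1, was called lower with it (log2 fold change -2.62, unadjusted p = 0.0279). Of all genes, 2.05% were called lower with the block.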

How the data were processed

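Polyadenylated RNA of 10 libraries, 1 per line and state, was sequenced from 1 end for 75 cycles. The authors mapped the reads with HISAT2 to GRCh38 (per the submitters' processing notes), quantified genes in StrandNGS and deposited expected counts per gene, most of which are not whole numbers (24.05% of values above 0 are). In 1 library 455 count cells had been turned into dates and were restored (0 in members). The deposited log2 values, relative to the sensitive library of each line after DESeq normalization, were used only for this restoring. Whether counting used strand is not given in the sources used here.

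Expected counts were rounded and fitted in edgeR 4.0.16 (R 4.3.3; TMM, filterByExpr, quasi-likelihood test, 17288 genes), resistant against sensitive without a block. A gene was called at an unadjusted p of at most 0.05 and at least 2-fold, and Benjamini-Hochberg adjusted values are given beside it. Full values per library were given for 11 members and the others were summarised. Single genes were also tested by an exact two-sided permutation of the 10 libraries (252 arrangements, smallest possible p 0.00794). It ignored the pairing of libraries by line and the lines that share a patient. Alternatives were DESeq2 1.42.0, limma-voom 3.58.1, other size factors, no filter, the cell line as block and leaving out each line or library. The fit was tested on simulated data. There a changed gene had the same mean change in every line, unlike here, and the outcome is not given or used as support. The SE of an edgeR log2 fold change was derived as its absolute value over the square root of the test's F statistic. Levels were CPM, and within-line log2 ratios had 1 count added. Without the block, edgeR's p-values measure the spread between lines, with 1 library each, and take the 10 libraries as independent. With the block they measure the spread of the changes within lines. Neither takes account of the lines that share a patient.

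The replicate number marks the cell line, so the libraries pair by origin. Deviations from the group means correlated within lines at -0.0833 (WM983A), 0.513 (WM983B), 0.671 (WM278), 0.660 (WM1617) and 0.351 (WM902B). Between lines they averaged -0.104. Centring on the group means ties this average to the within-line values, so the contrast is no separate test of the pairing. In WM983A the deviations did not show the pairing.

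Members and lists were chosen with earlier results of these data known. Gene positions are from GENCODE v44 on GRCh38, and promoters from RefSeq. Values of some genes that were fitted and counted are not reported here.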

Additional observations from a re-analysis of the deposited data

Results flagged for a closer look

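Of 76 groups of 5 libraries, 5 had a highest or lowest library whose gap to its neighbour on the log2 scale (normalized counts with 1 added), as a share of the group's range on that scale, exceeded Dixon's critical value of 0.71, and chance alone gives about 1 in 20. For ABCA8, a lipid transporter, resistant WM278 was the highest at 27.7 CPM (gap 0.767). For ABCB5, sensitive WM278 was the lowest at 0.186 CPM (gap 0.744) and resistant WM1617 the highest at 8.70 CPM (gap 0.788). For ABCC3, resistant WM1617 was the lowest at 0.430 CPM (gap 0.763). For ABCC8, resistant WM983A was the highest at 2.09 CPM (gap 1.00).

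ABCB6 was higher in the resistant state of all 3 primary lines and lower in both metastatic lines, with a difference in mean log2 ratio of 1.97, primary minus metastatic. In edgeR the interaction with tumour origin was -2.05 on the log2 scale, metastatic minus primary (unadjusted p = 0.00306, adjusted p = 1.00), so it was past the unadjusted threshold and not the adjusted one.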

How the results depend on the processing

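Of 847 alternative values, which include counts of members, 732 were classed as the same. Another 15 reversed, each on leaving out a line or library. For log2 fold changes, the same means that direction and side of the threshold were kept. A count classed as the same could still change, as from 6 members called to 9 with no filter or 4 with limma-voom. ABCA7, ABCC1 and ABCC2 were called in every model fit run, while the exact permutation gave p = 0.0556 for ABCC2. The number of members called was 6, and 10 with DESeq2, of which 2 (ABCC1 and ABCC2) passed adjustment, 9 with no filter and 4 with limma-voom, which lost ABCA3, ABCC3 and ABCG2 and called ABCA13 lower. It ranged from 3 to 10 on leaving out a line or library. It was 3 without line WM983A or WM983B and 10 without WM278, and 3 without resistant WM983A, sensitive WM983A or sensitive WM902B. The share of all genes called is given here only for edgeR with and without the block. The counts from the other settings are therefore not read as a result about the family. With cell line as replicate block 6 were called, 5 higher and 1 lower, and 0 passed adjustment. The block added ABCB5 and removed ABCA3. With a pseudocount of 5, 1 member in WM1617 was past 2-fold, against 4. The cause was not tested.

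Over the libraries and lines left out, the log2 fold change ranged from -0.0214 to 0.54 for ABCA5, -2.96 to 0.91 for ABCA6, -0.31 to 0.66 for ABCA8, -2.27 to 0.40 for ABCB1, -0.41 to 1.07 for ABCC8, -0.33 to 0.16 for ABCF1, -0.32 to 0.00477 for ABCF3 and -0.36 to 1.76 for ABCG1. Members at a few counts are limited by depth, where 3 counts equal 0.171 to 0.226 CPM.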
